A study of Mus musculus with 4 samples.

Results

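The genes that marrow stromal cells use to hold and instruct blood stem cells and their early progeny were followed through single cells of the mouse spine, namely Cxcl12, Kitl, Angpt1, Il7, Lepr, Vcam1, Ebf1, Ebf3 and Foxc1. They were taken by symbol, 9 of the 32286 genes listed for each library, and all 9 were found in every library. Levels were read by library and in 4 groups of cells, called gates here, that were set by other genes. A cell was placed in the bone/stroma gate with at most 2 unique molecular identifiers (UMIs, counts of captured RNA molecules) of Acan and at least 1 of Runx2, in the mural gate with at least 3 of Rgs5 and Myh11 together and none of Sox9, in the endothelial gate with at least 1 of Cdh5 and none of Sox9, and in the cartilage gate with at least 1 of Sox9 and at least 3 of Acan.

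The bone marrow holds stromal cells known as CAR cells, for Cxcl12-abundant reticular cells, which lie along the sinusoids and are marked by the leptin receptor Lepr. They secrete the chemokine CXCL12, which keeps stem and progenitor cells in the marrow through the receptor CXCR4, and stem cell factor, the product of Kitl, which maintains them through KIT. The transcription factors EBF1, EBF3 and FOXC1 are known to set this stromal identity, and EBF1 and EBF3 to hold back the osteoblast fate. Adiponectin (Adipoq) is a further gene of the same cells.

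The study labelled cells descended from boundary caps, clusters of neural crest cells at the nerve roots in which Prss56 is active, with the red fluorescent protein tdTomato (tdTom) and removed Nf1 in them, as in neurofibromatosis type I. Control mice were Prss56Cre/+, R26tdTom/tdTom and Nf1+/+, and mutant mice were Prss56Cre/Cre, R26tdTom/tdTom and Nf1fl/fl, so every mouse carried Cre and the reporter, and the dose of Cre and the state of Nf1, which change together, cannot be told apart. Vertebrae with a visible tdTom signal, from the lower thoracic to the upper lumbar spine, were digested at 3 or at 12-16 months of age, cells stained for CD11b, CD31 or CD45 and dead cells were discarded in the sort, and tdTom+ cells were kept. Each of the 4 conditions gave 1 library of droplet-based single-cell RNA-sequencing, and the number of mice behind a library is not given in the sources used here.

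Values are given below as sets of 4, first control then mutant at 3 months, followed by control then mutant at 12-16 months, and each name means the library labelled so. Nf1 had 1239, 1091, 317 and 552 UMIs, or 131, 149.7, 147 and 125 CPM (a count scaled to a total of 1e6), so that at 3 months the level in the library labelled mutant lay above that of its control. The assay counts RNA near its 3′ end and says nothing of a deletion elsewhere in the gene. Cells above 750 UMIs and 500 genes with under 7% of their counts from mitochondrial genes numbered 717, 484, 135 and 421, or 1757 of 2172 barcodes, with medians of 8189 to 12644 UMIs. No cell barcode was shared between libraries. tdTomato gave 4.67 to 8.41 CPM, and Prss56 had 1 UMI in all.

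The bone/stroma gate held 45, 39, 27 and 83 cells (194 in all), the mural gate 10, 19, 3 and 25 (57), the endothelial gate 3, 7, 0 and 10 (20) and the cartilage gate 562, 377, 89 and 258 (1286). Of the bone/stroma cells 23 had a single Runx2 UMI, 9 of them with Ptprc, and 21 had 1 or 2 of Acan. The remaining 210 cells met no gate, and 10 met a pair of them, 9 of these bone/stroma and mural. The gates carried most of their markers, with Col1a1 at 43502 CPM in bone/stroma, Acta2 at 7307 in mural, Kdr at 797 in endothelial and Col2a1 at 4403 in cartilage cells over the 4 libraries. The mural markers Abcc9 and Kcnj8 were higher in endothelial cells (804 and 176 CPM) than in mural cells (120 and 18.3). The cartilage marker Col11a1 was also found in bone/stroma, at 943 CPM against 1502 in cartilage. The median cell had 11719 UMIs in the bone/stroma, 10139 in the mural, 6872 in the endothelial and 12113.5 in the cartilage gate.

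In 1 library the bone/stroma gate did not hold mainly bone or stroma. Ptprc, which encodes the blood cell antigen CD45, was found in 1, 23, 2 and 7 of its cells, which is 59.0% of the gate in the 3-month library labelled mutant. The summed level of 10 blood cell markers was 69.7, 11386, 923 and 3653 CPM, and 13 of those 23 cells also held RNA of the granule enzyme Mpo. Without the cells with Ptprc, the gate held 44, 16, 25 and 76 cells (161 in all) and the same 10 markers summed to 19.1, 26.5, 23.5 and 28.1 CPM. The gate comparisons and the ratios of mutant to control are therefore given for the gate as defined and for its cells without Ptprc, and the values of single cells for those without Ptprc.

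Upstream sequences are shown for 2 genes, for Cxcl12 because its RNA lay almost wholly in the bone/stroma gate and for Ebf3 because, of the 3 transcription factors, its level followed that of Cxcl12 most closely between cells. Both are the 250 bases before the RefSeq transcription start in GRCm38.p6, read 5′ to 3′ on the strand of the gene. Cxcl12 (ENSMUSG00000061353) lies on chromosome 6 from 117168535 to 117181367 on the plus strand, and its window is chr6:117168285-117168534. Ebf3 (ENSMUSG00000010476) lies on chromosome 7 from 137193673 to 137314445 on the minus strand, and its window is chr7:137314446-137314695. Capitals mark GC boxes, GGGCGG on either strand, in Cxcl12, and the EBF-type palindrome CCCNNGGG in Ebf3.
Cxcl12: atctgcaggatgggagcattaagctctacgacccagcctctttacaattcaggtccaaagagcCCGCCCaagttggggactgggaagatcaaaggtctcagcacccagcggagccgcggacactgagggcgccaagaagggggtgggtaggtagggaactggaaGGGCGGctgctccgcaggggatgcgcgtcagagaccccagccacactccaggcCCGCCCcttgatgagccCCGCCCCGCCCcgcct
Ebf3: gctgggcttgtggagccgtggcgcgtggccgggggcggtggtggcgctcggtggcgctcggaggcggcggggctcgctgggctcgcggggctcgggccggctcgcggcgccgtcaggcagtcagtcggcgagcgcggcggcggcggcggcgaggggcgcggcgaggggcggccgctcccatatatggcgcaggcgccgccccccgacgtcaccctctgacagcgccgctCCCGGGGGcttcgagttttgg
The Cxcl12 window held 5 GC boxes, the last pair of which overlap, and was 64.4% G and C. The Ebf3 window was 80.0% G and C and held 1 palindrome, 21 bases before the start, which overlaps no GC box. Windows were at hand for 6 of the 9 genes, 8 windows in all, and each was searched over the 250 bases before the start. A GC box was in 5 of the 8 windows (of Cxcl12, Ebf3, Foxc1, Kitl and Lepr) and in 32.7% of all 32851 windows. The palindrome was in 1 of the 8, of Ebf3, and in 11.8% of all. The forkhead core TGTTTA, in 12.0% of all windows, was in none of the 8. The RUNX core TGTGGT, in 14.0%, was in 2 of the 8, of Ebf1 and Foxc1.

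The other members lie, on the same build, on chromosome 10 from 100015630 to 100100416 (Kitl, ENSMUSG00000019966, plus strand), chromosome 15 from 42424723 to 42676977 (Angpt1, ENSMUSG00000022309, minus) and chromosome 3 from 7569994 to 7613760 (Il7, ENSMUSG00000040329, minus). Lepr (ENSMUSG00000057722, plus) is on chromosome 4 from 101717404 to 101815352 and Vcam1 (ENSMUSG00000027962, minus) on chromosome 3 from 116109949 to 116129688. Ebf1 (ENSMUSG00000057098, plus) is on chromosome 11 from 44617317 to 45008091 and Foxc1 (ENSMUSG00000050295, plus) on chromosome 13 from 31806633 to 31812476. All 9 are protein-coding genes.

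Cxcl12, the chemokine that retains stem cells in marrow, lay mostly in the bone/stroma gate, whose 194 cells (11.0% of all) held 14457 of 14976 UMIs, or 96.5%. It had 2696, 1769, 2683 and 7309 UMIs there. Without the cells with Ptprc its level was 3426, 9358, 3082 and 8206 CPM, against 46.5, 5.13, 6.88 and 10.8 CPM in the cartilage gate, and no library of the first overlapped any of the second. The highest cartilage value, that of the 3-month control, rested on 1 cell with 347 of 384 UMIs, which held 78 UMIs of Acan and 28 of Sox9 beside 27 of Adipoq and all 9 niche factors. At least 1 Cxcl12 UMI was found in 71.4% of the 161 bone/stroma cells without Ptprc and in 4.28% of cartilage cells, or in 60.2% and 0.922% when each cell was thinned to 2000 UMIs. In the mural gate 2 cells that also met the bone/stroma gate held 499 and 270 of the 798 UMIs. Mural cells of no other gate had 10.5 to 183 CPM, from 1 to 11 UMIs, and endothelial cells had 1 UMI in all.

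Kitl, which encodes stem cell factor, was shared by bone/stroma and mural cells. Bone/stroma cells had 336, 245, 259 and 794 UMIs, and without Ptprc 427, 1297, 289 and 892 CPM. Mural cells of no other gate had 432, 569.6, 304 and 648 CPM, so the ranges of the 2 gates overlapped, and 95.8% of these 48 cells held at least 1 UMI. The cartilage gate held 31, 0, 1 and 2 UMIs, and the endothelial gate 1 UMI. Over all passing cells, 176 of 1757 held Kitl RNA, and a single cell gave at most 74 of 1958 UMIs.

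Angpt1, which encodes the vessel-stabilising ligand of the receptor TEK, showed how strongly the cells with Ptprc in the gate could weigh. Its UMIs in the bone/stroma gate were 89, 641, 187 and 268, of which 0, 595, 110 and 60 lay in cells with Ptprc. The cell of the most UMIs in all libraries, 193137, belonged to the 3-month mutant and held 323 of the 641, together with 2611 UMIs of the platelet factor gene Pf4 and 121 of Itga2b, both markers of megakaryocytes. Without the cells with Ptprc the level was 113, 243, 120.4 and 234 CPM. Mural cells of no other gate had 84.3, 97.2, 60.9 and 135 CPM, cartilage 3.82 to 9.43 CPM and endothelial cells 0 UMIs.

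Il7, the lymphoid growth factor, was the sparsest, with 125 UMIs in 51 cells. It had 35, 13, 28 and 44 UMIs in the bone/stroma gate, and 44.5, 68.8, 28.1 and 48.3 CPM without the cells with Ptprc. The cartilage gate held 4, 0, 0 and 0 UMIs, and neither the 20 endothelial cells nor the 48 mural cells of no other gate held any. A count of 0 allows up to 3 UMIs per library, so the level of the whole bone/stroma gate was at least 29.4, 16.7 and 43.3 times that of cartilage in the last 3 libraries. The same floor allowed only at least 1.40, 1.14 and 2.36 times the mural level in the 3-month control, the 3-month mutant and the 12-16-month mutant. In the 12-16-month control it gave no bound above 1 (at least 0.42).

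Lepr, the leptin receptor, had 224, 94, 277 and 688 UMIs in the bone/stroma gate, and 285, 498, 321 and 773 CPM without the cells with Ptprc. Cartilage had 18.0, 16.6, 22.2 and 22.4 CPM, below every bone/stroma value, with a UMI in 11.0% of cells against 67.7%, or 3.13% against 43.6% at 2000 UMIs per cell. The 48 mural cells of no other gate had 10 UMIs in all and endothelial cells 5.

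Vcam1, an adhesion molecule that binds the integrin of ITGA4 and ITGB1 on blood cells, was higher in the endothelial than in the bone/stroma gate in each library that held both. Endothelial cells had 1011, 2922 and 1067 CPM in the 3-month control, the 3-month mutant and the 12-16-month mutant, and the 12-16-month control had no such cell. Bone/stroma cells without Ptprc had 217, 995, 156 and 532 CPM. At least 1 UMI was found in 75.0% of the 20 endothelial cells, which had survived a sort against CD31. In cartilage it had 38, 1, 2 and 8 UMIs, and in mural cells of no other gate 0, 7, 0 and 0.

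Of the transcription factors, Ebf1 was a gene of mural cells as much as of bone/stroma. Bone/stroma cells had 908, 374, 593 and 1780 UMIs, and 1154, 1974, 801 and 1999 CPM without the cells with Ptprc. In the gates as defined, mural cells lay above bone/stroma in every library, with 1458, 2155, 2367 and 2086 CPM against 1150.3, 434, 813 and 1837. Mural cells of no other gate had 1359, 2155, 1704 and 1746 CPM, a range that overlaps that of the cells without Ptprc, and each of these 48 cells held Ebf1 RNA. Cartilage had 39.7, 104, 73.4 and 47.2 CPM. The endothelial gate held 6, 5 and 163 UMIs in its 3 libraries, but 146 of the last lay in 1 cell with Ptprc that also held 59 UMIs of Vpreb3 and 21 of Cd79a, genes of the B cell line.

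Ebf3, the related factor, was more restricted. It had 194, 169, 124 and 694 UMIs in the bone/stroma gate, and 247, 889, 170.4 and 779 CPM without the cells with Ptprc. In mural cells of no other gate it had 31.6, 181, 122 and 57.8 CPM, below the bone/stroma value of the same library each time. The value of the 12-16-month control rests on 2 cells with 2 UMIs each, too few to place it below 170.4 CPM. Cartilage had 3.27, 12.5, 8.41 and 5.24 CPM, and the endothelial gate held 4 UMIs.

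Foxc1, a forkhead factor of skeletal and vascular mesenchyme, was the member that cartilage shared. It had 152, 275, 156 and 257 CPM in bone/stroma cells without Ptprc and 113, 131, 129 and 136 CPM in cartilage, where 62.5% of cells held at least 1 UMI. Cartilage held 77.7% of all its UMIs, but also 73.2% of all cells and 18276552 of the 23270733 UMIs of all genes. In mural cells of no other gate Foxc1 had 105, 88.3, 152 and 109 CPM, and no UMI of it was found in the 20 endothelial cells. Its 2907 UMIs were also the most evenly spread, with 6.57% of them in the top 10 cells, against 32.0% for Cxcl12.

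**Figure D1:**
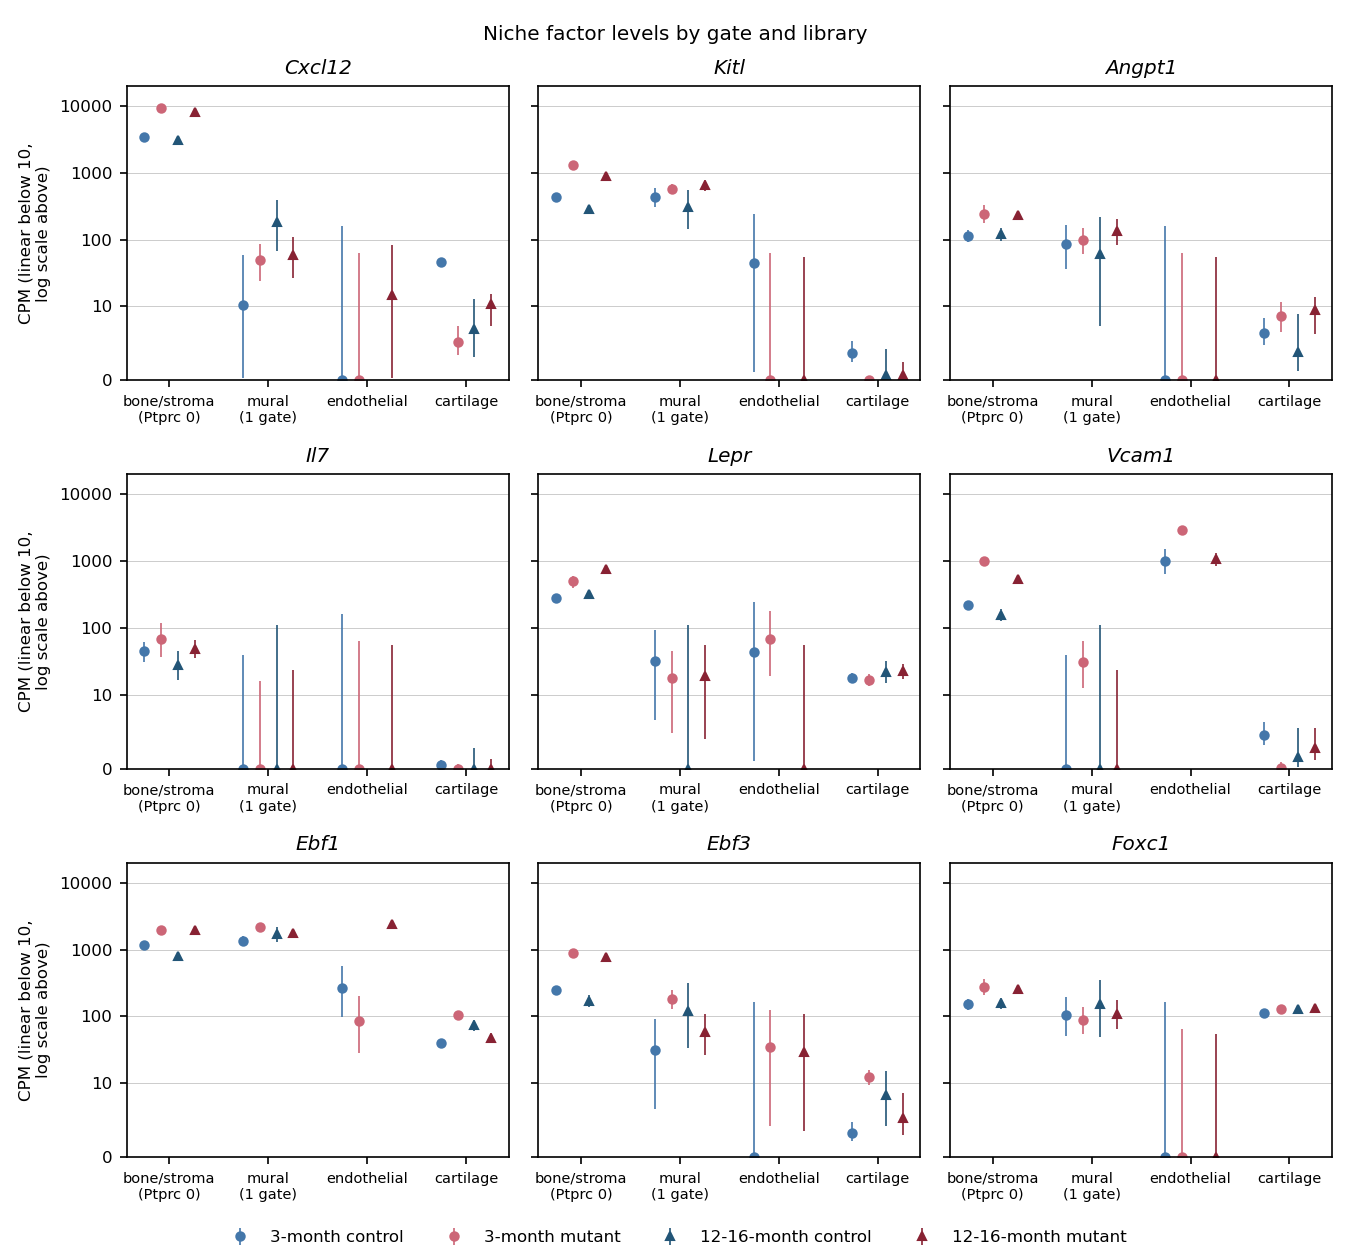
Level of each of the 9 genes in CPM (vertical axis, linear below 10 and logarithmic above) in 4 gates and 4 libraries, with bone/stroma cells without Ptprc and mural cells of no other gate. Points are pooled libraries and bars 95% Poisson intervals, which cover counting error only. Cxcl12 runs from 3082 to 9358 CPM in bone/stroma and from 5.13 to 46.5 CPM in cartilage, while Foxc1 lies within a narrow band in both and Vcam1 peaks in endothelial cells.

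The gates were compared over libraries, with UMIs summed per library and gate, edgeR's quasi-likelihood test with the library as a term, and Benjamini-Hochberg adjustment over all 11787 genes tested. Because the 4 libraries differ in condition, these p-values set a difference between gates against a spread that all 13 pools share. The 12-16-month control gave no mural pool (3 cells), and neither control gave an endothelial pool. The separate mice behind the libraries are not given, and pools of 1 library share it.

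Against cartilage, 8 of the 9 genes were higher in bone/stroma and none was lower, where 13.7% of all genes were higher and 12.7% lower. Their median log2 fold change was 5.30, against 0.05 for all genes. Il7, 1 of the 8, had 4 UMIs in cartilage and met the filter only through its bone/stroma counts. Cxcl12, Kitl, Angpt1, Vcam1 and Ebf3 were also too sparse in cartilage to meet it there, and were kept through other gates. The count of 8 is therefore no independent support. In cartilage Kitl had 34 UMIs, 27 of them in 1 cell, and Vcam1 had 49, so their ratios are close to bounds. Of 454 Cxcl12 UMIs there, 347 lay in 1 cell. Cxcl12 was higher by 7.81 ± 1.00 on the log2 scale (SE, adjusted p = 0.000116), Kitl by 8.14 ± 0.73 (adjusted p = 1.53e-05) and Ebf3 by 5.30 ± 0.50 (adjusted p = 1.34e-05). Foxc1 was the member that did not pass, at 0.02 ± 0.31 (adjusted p = 0.974). With cells of a single gate and no Ptprc, a form chosen after seeing the data, it passed too, at 0.55 ± 0.20 (adjusted p = 0.0441). All 9 were then higher, where 16.7% of 10816 genes were higher and 17.3% lower. The direction of Foxc1 turned with other choices, which are given in the last section.

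Against mural cells, 4 of the 9 were higher and none lower, where 7.88% of genes were higher and 6.46% lower: Cxcl12 by 4.34 ± 1.03 (adjusted p = 0.0161), Vcam1 by 3.65 ± 0.80 (adjusted p = 0.0102), Angpt1 by 1.98 ± 0.47 (adjusted p = 0.0179) and Il7, whose adjusted p was 0.0315. Il7 had 2 UMIs in the mural gate, both in 1 cell that also met the bone/stroma gate. It met the filter only through its bone/stroma counts, so its call adds nothing to the bounds given above. With cells of a single gate and no Ptprc, 7 of the 9 were higher, where 13.2% of genes were higher and 9.72% lower. Il7 and Vcam1 are among these 7. Of the 48 mural cells of no other gate, none held Il7 RNA and 46 held no Vcam1 RNA. Il7 again met the filter only through bone/stroma, and both ratios are bounds or close to them. Cxcl12 then stood at 7.67 ± 0.77 (adjusted p = 1.01e-06), Lepr at 4.62 ± 0.50 (adjusted p = 2.49e-06) and Ebf3 at 2.93 ± 0.42 (adjusted p = 4.23e-05). Angpt1 stood at 1.21 ± 0.28 (adjusted p = 0.00467) in place of 1.98. Kitl (0.84 ± 0.50, adjusted p = 0.267) and Ebf1 (0.03 ± 0.31, adjusted p = 0.967) did not pass in either form. Scaling to library totals moved the split of all calls from 929 higher and 761 lower to 643 higher and 929 lower, and turned the direction of no member. With no replicate block Cxcl12 did not pass (3.40, adjusted p = 0.0569).

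Against endothelial cells, which only 2 libraries held in number enough to enter the fit, 5 of the 9 were higher and none lower, where 3.16% of genes were higher and 3.14% lower. Those 5 were Cxcl12 (adjusted p = 0.0119), Kitl (0.0165), Ebf3 (0.0142), Foxc1 (0.00727) and Angpt1 (0.00296). Kitl, Foxc1 and Angpt1 had no endothelial UMI in these 2 libraries, so their ratios are lower bounds. Against a floor of 3 UMIs they were at least 18.4, 5.31 and 6.22 times in the 12-16-month mutant. In the 3-month mutant they were at least 5.48, 1.19 and 14.3 times, the last with 595 of 641 UMIs in cells with Ptprc. Cxcl12 had 1 endothelial UMI, in the 12-16-month mutant, so its ratio is close to a bound as well. Vcam1 was the member with a negative value, −2.39 ± 0.74 (adjusted p = 0.0814), and it passed as lower when scaled to library totals (−2.80, adjusted p = 0.0439) and with no replicate block (−2.37, adjusted p = 0.0303). Library totals moved the split of all calls from 372 higher and 370 lower to 222 higher and 572 lower. With cells of a single gate and no Ptprc, 7 of the 9 were higher, where 7.78% of genes were higher and 4.85% lower. Those added were Lepr (4.57 ± 0.72, adjusted p = 0.000326) and Ebf1 (3.53 ± 0.48, adjusted p = 8.11e-05). Lepr had no endothelial UMI in the 12-16-month mutant and at most 2 per cell in the 3-month mutant. Ebf3 had at most 2 per cell in each of these libraries. The ratios of Lepr and Ebf3 are therefore close to bounds too. Without the 12-16-month mutant no gene passed by edgeR's test, with 1779 genes at an unadjusted p under 0.05, and DESeq2 on all libraries called 1027.

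Within the bone/stroma gate, the niche factors were concentrated in cells that also held RNA of adiponectin (Adipoq) or haptoglobin (Hp), at least 2 UMIs of the pair together. There were 15, 8, 7 and 36 such cells without Ptprc (66 of 161), and 29, 8, 18 and 40 others (95). The others were richer in RNA of most osteoblast markers, with Bglap (osteocalcin) at 29248 against 103 CPM and Col1a1 at 90527 against 2355. Runx2, at 2017 against 2719 CPM, and Ibsp, at 5373 against 7084, were higher in the Adipoq/Hp cells. Alpl was alike in both, at 530 against 521 CPM.

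Cxcl12 had 8414, 14743, 13903 and 16757 CPM in Adipoq/Hp cells against 590, 1271, 695 and 1029 CPM in the others, with no overlap. The median Adipoq/Hp cell held 178.5 UMIs (lowest 0, highest 715) and the median other cell 1 (lowest 0, highest 296), 45 of the 95 holding none. Kitl had 922, 1975, 1099 and 1671 CPM against 145, 278, 111 and 238. Lepr had 659, 679, 1410 and 1533 CPM against 71.7, 225, 80.2 and 134.

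The same held for Ebf3, with 557, 1376, 735 and 1590 CPM against 69.8, 159, 45.8 and 99.1. Ebf1 differed less, with 1718, 2539, 1635 and 2864 CPM against 833, 1125, 616 and 1272. Vcam1 had 435, 1182, 744 and 940.0 CPM against 93.7, 715, 26.7 and 190.0, higher in the first group within each library. Of the 54 UMIs behind the value of 715, from 8 cells, 36 lay in 1 cell that also met the endothelial gate. The groups of Foxc1 overlapped, with 273.5, 273, 571 and 362 CPM against 83.7, 278, 64.9 and 169.

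In the test over libraries, with 6717 genes and all cells of the gate, 8 of the 9 were higher in Adipoq/Hp cells and none lower, where 3.08% of genes were higher and 1.62% lower. Their median was 2.95, against −0.03 for all genes. The Adipoq/Hp pools tested here held 15, 17, 8 and 39 cells, and 9 of the 17 in the 3-month mutant had Ptprc. The bone/stroma cells with Ptprc in that library held 246 UMIs of Hp and 0 of Adipoq. A cluster of these data led by Cxcl12, Hp and Adipoq was already known when the split was set. The p-values are therefore no independent support for a link of Cxcl12, or of genes that go with it, to Adipoq and Hp. Cxcl12 was higher by 4.11 ± 0.34 (adjusted p = 0.000101), Ebf3 by 3.59 ± 0.34 (adjusted p = 0.000289) and Lepr by 3.31 ± 0.32 (adjusted p = 0.000292). Angpt1 did not pass (0.07 ± 0.70, adjusted p = 0.982) until cells with Ptprc or a second gate were left out (1.68 ± 0.30, adjusted p = 0.000424). In that form 7 of the 9 were higher, where 5.38% of 5442 genes were higher and 4.21% lower, and Ebf1 (0.76 ± 0.26, adjusted p = 0.0655) and Foxc1 (1.10 ± 0.36, adjusted p = 0.0584) were not. Neither passed with no replicate block (adjusted p = 0.526 and 0.22).

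**Figure D2:**
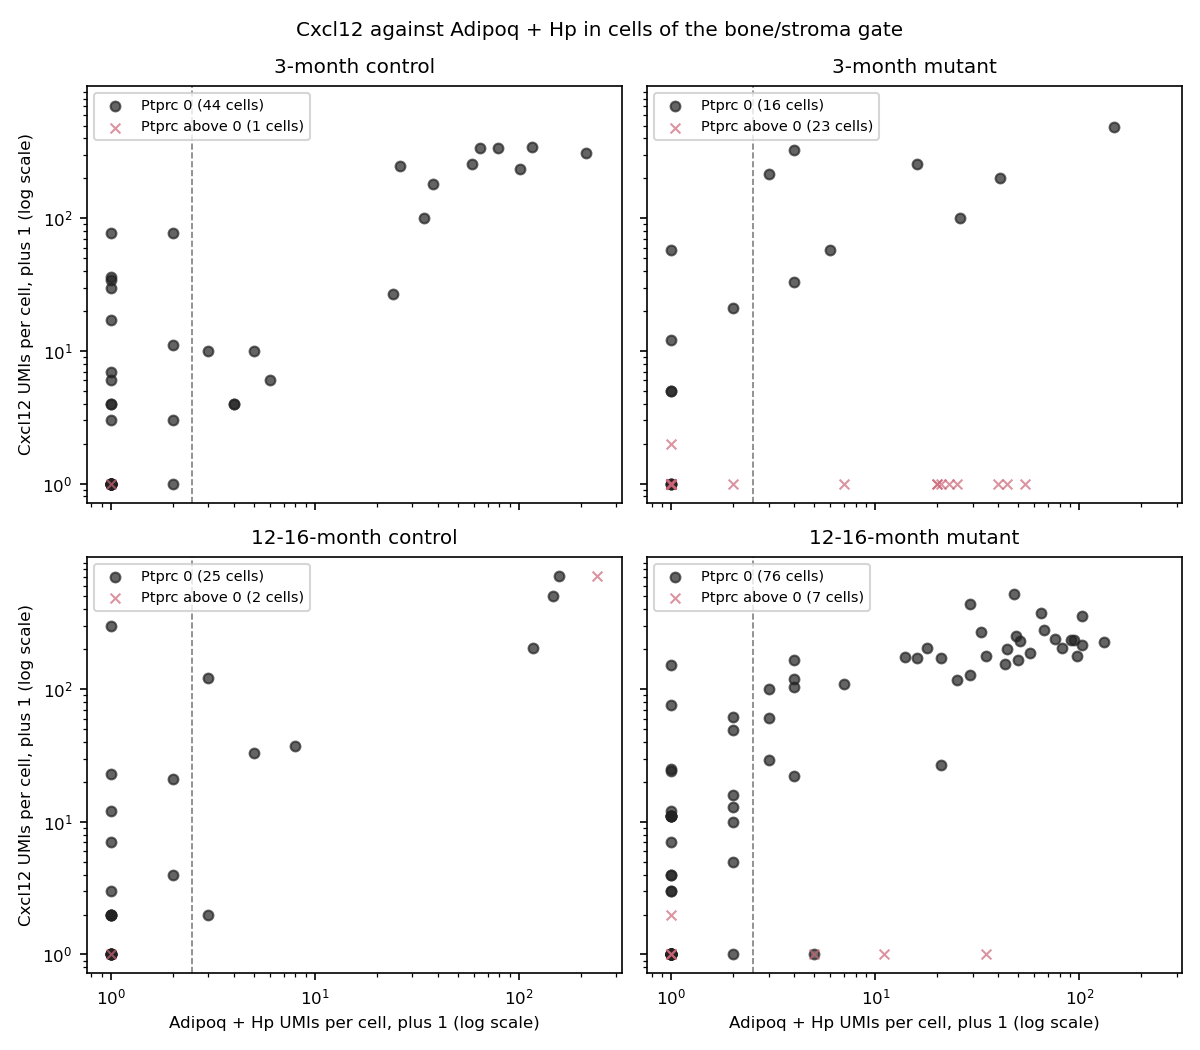
Cxcl12 UMIs plus 1 (vertical, log axis) against Adipoq and Hp UMIs plus 1 (horizontal, log axis) in each bone/stroma cell, in 1 panel per library. Crosses are cells with Ptprc, circles those without, and the dashed line the limit of 2 UMIs; 23 of the 39 cells of the 3-month mutant are crosses and lie low.

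Single cells carried the set together. The median Adipoq/Hp cell without Ptprc held RNA of 8.5 of the 9 genes, 33 of the 66 held all 9 and 64 held at least 6. Of the 95 others the median cell held 5, and 4 held all 9. The median was 4 in the 48 mural cells of no other gate, 1.5 in endothelial cells and 1 in cartilage. Thinned to 2000 UMIs per cell, the mean number was 6.03, 2.49, 2.21, 1.24 and 0.356 in that order.

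Among the 161 cells, Kitl was found in 100% of the 75 with at least 20 UMIs of Cxcl12 and in 51.2% of the 86 with fewer, with median depths of 11691 and 11117 UMIs, which by library differed most in the 3-month mutant (11906 and 7500). Il7 was found in 57.3% and 3.49%, Ebf3 in 90.7% and 27.9%, and Ebf1 in 100% and 86.0%. Within the libraries, of 44, 16, 25 and 76 cells, Spearman's rho with Cxcl12 in CPM per cell ran from 0.78 to 0.94 for Kitl, 0.79 to 0.88 for Ebf3, 0.43 to 0.71 for Ebf1 and 0.23 to 0.75 for Foxc1. For Ibsp, a bone matrix gene, it ran from −0.16 to 0.06. These are descriptions, since the cells of a library share it and its depth.

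Likeness was measured across the 13 pools of library and gate as Pearson's r of log2(CPM + 10), over 11722 genes, and the 3 most like genes are named for each member. For Cxcl12 they were Basp1, Gdpd2 and Hp (r = 0.98 each), for Kitl Serping1 (0.99), S1pr3 (0.99) and Eya4 (0.98), and for Angpt1 Ramp1 (0.96), Brd3 (0.95) and Arid3a (0.92). For Il7, with 125 UMIs in all, they were Kng1 (0.997), H2-Q10 (0.993) and Ackr4 (0.993). For Lepr they were Gm12216 (0.92), Cdh11 (0.91) and Svep1 (0.91), and for Vcam1 Ifih1, Fmnl2 and Ifi47 (0.97 each). Among the factors, Ebf1 was most like Pck2 (0.94), Ppm1e (0.93) and Uhrf2 (0.93), Ebf3 most like C1ra (0.95), Rnf150 (0.93) and Ctif (0.92), and Foxc1 most like Ddr2 (0.98), Fbn1 (0.98) and Dhrs7 (0.96). The pools share libraries, so that r is a description. They are whole gates, cells with Ptprc included. Such cells held 595 of the 641 Angpt1 UMIs in the 3-month mutant bone/stroma pool. Whether the genes named go with a member in cells without Ptprc was not tested.

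The receptors were counted in the same cells. Cxcr4 was found in none of the 161 bone/stroma cells without Ptprc, which allows a share of up to 1.86% of cells with a UMI and does not limit the share that express it, and in 69.7% of the 33 with it. Kit had 6 UMIs in the former and 111 in the latter, and Il7r 0 and 29. Tek, the receptor of ANGPT1, was at 479.6 CPM in endothelial cells. Ackr3, the scavenging receptor of CXCL12, was at 64.7 CPM in cartilage and fell in bone/stroma by 2.33 on the log2 scale against it (adjusted p = 0.00179). Of the 10 receptors and partners, 6 were higher and 1 lower against cartilage, where 13.7% of all genes were higher and 12.7% lower. With cells of a single gate and no Ptprc 3 of 7 were higher and 1 lower, where 16.7% and 17.3% of all genes were.

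Other genes of the marrow niche form a list chosen with earlier results of these data known, so its counts are no independent support. In the list, 19 were tested. Of these, 16 were higher in bone/stroma than in cartilage and 1 lower (13.7% and 12.7% of all genes), among them Hp (8.41 ± 0.73, adjusted p = 1.25e-05). Their median was 4.06, against 0.05 for all genes. The BMP antagonist Grem1 was the lower one and fell by 2.92 (adjusted p = 0.00111). These pools include cells with Ptprc, which held 463 UMIs of Hp. In cells of a single gate and no Ptprc, 17 of the 19 were higher and 1 lower, where 16.7% and 17.3% of all genes were. Against mural cells 9 were higher and 3 lower (7.88% and 6.46% of all genes), the latter being Ebf2, Jag1 and Foxc2, and Ebf2, a factor related to Ebf1 and Ebf3, fell by 3.74 (adjusted p = 0.0106). In Adipoq/Hp cells 10 of 16 were higher and none lower (3.08% and 1.62% of all genes), 2 of them Adipoq and Hp, which made the split and had the highest values. The lowest of the 10 was Jag1, a ligand of Notch receptors (1.55 ± 0.32, adjusted p = 0.0201).

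The comparison of mutant with control sets mice with Nf1fl/fl and 2 alleles of Cre against mice with Nf1+/+ and 1. With 1 library a condition it has no replicate check and no test, and ratios of CPM are given with exact 95% intervals that cover counting error only. In bulk sums of this kind, fewer cells of a type and less RNA per cell cannot be told apart, so the share of Adipoq/Hp cells is to be read beside each ratio: 15 of 44, 8 of 16, 7 of 25 and 36 of 76 cells without Ptprc. Deep cells weigh more in such sums, and by UMIs the shares were 285226 of 787002, 113409 of 188933, 115583 of 639520 and 406396 of 890586. In the 12-16-month control, 1 cell outside the Adipoq/Hp group gave 132228 of the 639520 UMIs and held 1 UMI of Cxcl12.

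At 3 months the direction of most members turned on the cells with Ptprc, while Angpt1 and Vcam1 lay above 1 in both forms. In the whole gate the ratio of mutant to control was 0.601 (0.566 to 0.638) for Cxcl12, 0.668 (0.564 to 0.79) for Kitl and 6.60 (5.28 to 8.33) for Angpt1. With a limit of 2-fold, 1 of the 9 was higher and 4 lower, where 23.9% of 9183 genes were higher and 12.2% lower, 2191 and 1122 genes, or 1656 and 1493 when scaled by TMM. Without the cells with Ptprc the ratio was 2.73 (2.57 to 2.9) for Cxcl12, 3.04 (2.57 to 3.59) for Kitl and 2.15 (1.47 to 3.11) for Angpt1.

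In that form Ebf3 was at 3.61 (2.92 to 4.46) and Vcam1 at 4.58 (3.7 to 5.67). Of the mutant UMIs of Vcam1, 36 lay in 1 cell that also met the endothelial gate. Of the 9, 5 were at least 2-fold higher and none lower, where 15.8% of 6661 genes were higher and 11.4% lower. The median gene lay at 0.18 on the log2 scale here, and at 0.38 in the same cells at 12-16 months. The mutant value rests on 16 cells. Within Adipoq/Hp cells, 15 against 8, the ratio was 1.75 (1.65 to 1.87) for Cxcl12, 2.47 (1.97 to 3.1) for Ebf3, 2.72 (2.11 to 3.5) for Vcam1 and 1.03 (0.78 to 1.35) for Lepr. There 3 of the 9 were at least 2-fold higher, where 12.5% of genes were higher and 12.2% lower.

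At 12-16 months the ratio was 2.05 (1.96 to 2.14) for Cxcl12, 4.21 (3.47 to 5.14) for Ebf3 and 3.13 (2.55 to 3.87) for Vcam1 in the whole gate. For Angpt1 it was 1.08 (0.891 to 1.31), below 1 when scaled by TMM. Of the 9, 5 were at least 2-fold higher and none lower, where 14.5% of genes were higher and 3.3% lower, 1306 and 296 genes, or 728 and 537 when scaled by TMM. With that scaling the members past 2-fold were Ebf3 (1.79 on the log2 scale) and Vcam1 (1.36), while Cxcl12 (0.75), Kitl (0.92) and Ebf1 (0.89) were not. Without the cells with Ptprc, Cxcl12 was at 2.66 (2.53 to 2.8), Lepr at 2.41 (2.06 to 2.83) and Ebf3 at 4.57 (3.73 to 5.65), and 6 of the 9 were at least 2-fold higher, where 18.1% of 8409 genes were higher and 2.72% lower. Of the control cells left out, 1 with 5 UMIs of Ptprc held all 9 niche factors. It had 712 UMIs of Cxcl12, 72 of Lepr and 241 of Adipoq and Hp together. Leaving it out lowers the control level of Cxcl12 and Lepr.

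Within Adipoq/Hp cells of that age, 36 against 7, most of these ratios were nearer to 1. Cxcl12 was at 1.21 (1.14 to 1.27), Lepr at 1.09 (0.913 to 1.3), Vcam1 at 1.26 (0.997 to 1.62) and Foxc1 at 0.633 (0.471 to 0.86). Ebf3, at 2.16 (1.72 to 2.74), was the 1 member at least 2-fold higher, where 15.6% of genes were higher and 5.25% lower. That share of the members, 1 of 9, lies near that of all genes.

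**Figure D3:**
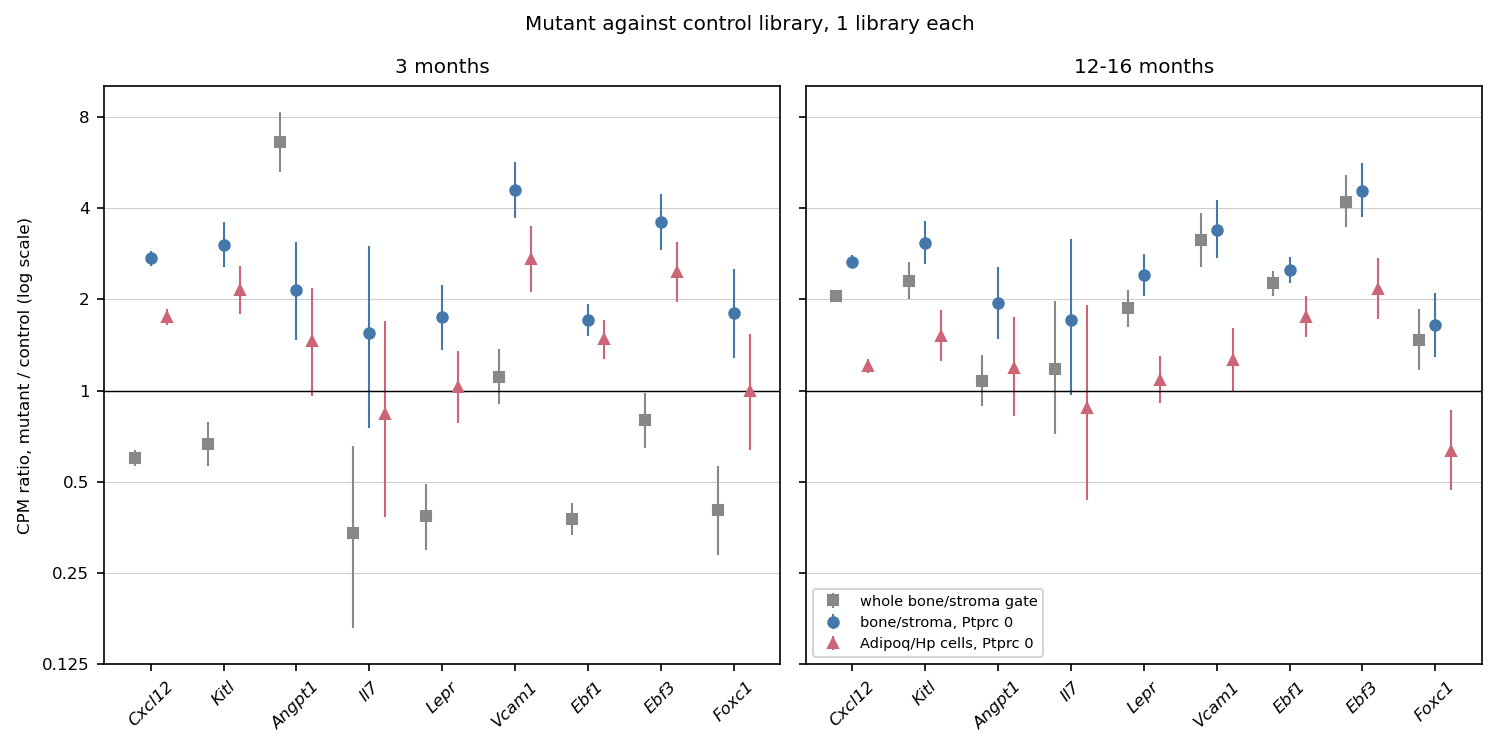
Ratio of mutant to control CPM (log axis) for each gene at 3 months and at 12-16 months, in the whole bone/stroma gate (grey squares), in its cells without Ptprc (blue circles) and in Adipoq/Hp cells without Ptprc (red triangles). Bars are exact 95% intervals of counting error. At 3 months Cxcl12 moves from 0.601 to 2.73 when cells with Ptprc are left out.

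Age was compared in cells without Ptprc. In the control none of the 9 was 2-fold higher or lower at 12-16 than at 3 months, where 4.45% of genes were higher and 9.32% lower, with ratios from 0.633 to 1.13. In the mutant none was past 2-fold either, where 12.0% were higher and 6.5% lower, with ratios from 0.535 to 1.55. In the whole gate of the mutant 8 were higher and 1 lower, where 17.3% and 17.6% were.

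In cartilage, the most numerous cells, Ebf1 was 2.61 times (2.28 to 3.00) and Ebf3 3.82 times (2.43 to 6.18) as high in the mutant at 3 months, and 0.643 (0.491 to 0.844) and 0.623 (0.267 to 1.5) times as high at 12-16 months, the last from 15 against 11 UMIs. The levels behind them were low, at most 104 CPM. Cxcl12 and Kitl were lower in the mutant cartilage cells at 3 months, where 1 control cell held 347 and 27 of their UMIs. Without that cell Cxcl12 would not be lower, so neither value is read as a difference between mutant and control. The share of all genes past 2-fold in cartilage is not given here, so these ratios of picked members are descriptions.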

How the data were processed

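The authors sorted tdTom+ cells, made 10x Genomics libraries and deposited count matrices of UMIs per gene and cell, which the file headers credit to Cell Ranger 8.0.0 and the submitters' notes place on mm10. Whether these counts precede the removal of ambient RNA is not given in the sources used here. Cells above 750 UMIs and 500 genes, and below 7% of counts from mitochondrial genes, entered the analysis. Scrublet in scanpy 1.11.5 (expected rate 6%) marked 25 of 1757 cells, which were kept. Its automatic threshold fell in a gap between discrete scores in the 3-month control, and the number marked there (8) moved with floating-point rounding, so the calls were used only for an alternative. The genes, the lists and the Adipoq/Hp split were chosen with earlier results of these data known. Named genes are the 9 members, gate genes, markers and label checks, the lists of 10 receptors and partners and 22 other niche genes (examples: the highest and lowest called), and the 3 genes most like each member. Pf4, Itga2b, Vpreb3 and the values of Kit, Il7r and Tek were singled out after the values were seen.

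Counts were summed per library and gate (13 pools of at least 5 cells) or per library and Adipoq/Hp split (8 pools of at least 3 cells) and tested with edgeR 4.0.16 (R 4.3.3), glmQLFit and glmQLFTest, TMM factors, a library term, and an adjusted p under 0.05. DESeq2 1.42.0, other scalings, filters and left-out libraries were alternatives. The gates of a library were paired by the library term, and conditions could not be paired, since each has 1 library. Ratios between conditions use exact conditional binomial intervals (95%). Scripts were tested on simulated data. Coordinates are those of GRCm38 (mm10), sequences are RefSeq's. Ebf1, Ebf3, Vcam1, Angpt1 and Il7 overlap annotated genes of the opposite strand.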

Additional observations from a re-analysis of the deposited data

Results flagged for a closer look

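Ebf1 was also found outside the gates. The 210 cells that met none had 1366 CPM over the 4 libraries, or 1434, 985, 213 and 1941 CPM by library, a signal in cells that no comparison above used. Of the 1368 UMIs, 1047 (76.5%) lay in 36 cells with the B cell gene Cd79a, of which the libraries held 14, 8, 0 and 14. That share was 41.1%, 74.6%, 0% and 99.4% by library. Ebf1 was at 368 CPM in the rest of these cells, or 929, 283, 213 and 14.6 CPM by library. The cells with Cd79a held 0 UMIs of Ebf3 and 1 of Cxcl12. EBF1 is known as a factor of the B cell line.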

How the results depend on the processing

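Genes called against endothelial cells numbered 742, and 1492 with no filter, 1249 without cells with Ptprc and 1367 with cells of a single gate and no Ptprc (chosen after seeing the data). For Adipoq/Hp cells they numbered 316, and 1037 with no filter, 112 with no replicate block, 483 without cells with Ptprc and 522 with cells of a single gate and no Ptprc. Genes past 2-fold numbered 3313 between mutant and control at 3 months and 3435 with age in the mutant, and 1815 and 1395 without cells with Ptprc. Leaving out 1 library gave 683 to 1572 calls against mural cells (1690 with all; 761 without the 3-month control, 683 without the 12-16-month mutant), 0 to 689 against endothelial (440 without the 3-month control, 0 without the 12-16-month mutant), 2178 to 3873 against cartilage (3116 with all) and 118 to 570 for Adipoq/Hp cells (570 without the 3-month mutant, 161 without the 12-16-month control, 118 without the 12-16-month mutant). The cause was not tested.

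Directions that turned were, as log2 values, Kitl against mural (−0.16; 0.71 without cells with Ptprc, 0.84 with cells of a single gate as well, −0.52 to 0.30 leaving out 1 library), Ebf1 against mural (−0.68; 0.0334 with cells of a single gate and no Ptprc), Ebf1 against endothelial (0.69; −0.20 to 3.93 leaving out 1 library) and Foxc1 against cartilage (0.02; −0.0307 with no filter, −0.0079 by DESeq2, −0.18 with no Sox9, −0.19 to 0.43 leaving out 1 library). Angpt1 in Adipoq/Hp cells (0.07) was at −0.70 with no replicate block, −0.038 with cells of a single gate and −0.65 to 0.95 leaving out 1 library. At 3 months, without cells with Ptprc, the log2 ratios of mutant to control turned from below to above 0, to 0.81 for Lepr, 0.78 for Ebf1, 0.85 for Foxc1 and 0.63 for Il7. With age in the mutant the log2 ratios turned to −0.19 for Cxcl12, −0.54 for Kitl, −0.19 for Ebf3, −0.10 for Foxc1, −0.90 for Vcam1 and −0.51 for Il7. Fitted with no replicate block, calls numbered 1827 against mural, 1027 against endothelial and 3336 against cartilage. For mutant against control and for age, no paired analysis was possible because each condition has 1 library. Without the cell of the most UMIs (chosen after seeing the data), the 3-month log2 ratio of Angpt1 was 2.08 and not 2.72. Without the 12-16-month mutant, 10 calls of members were lost over the 4 comparisons.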
